A study of Mus musculus with 6 samples.

Results

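Acyl-CoA thioesterases (the Acot family) were followed in mouse liver. The 10 members were the rows of the deposited table named Acot1, Acot2, Acot3, Acot4, Acot7, Acot8, Acot9, Acot11, Acot12 and Acot13, out of 54532 genes. They were chosen by name, with earlier results of these data known. RNA was sequenced from 6 liver libraries of mice put on a high-fat diet (HFD) at 6 weeks of age for 12 weeks. In 3 libraries G3bp1, which encodes an RNA-binding protein of stress granules, had been deleted in hepatocytes only (G3bp1-HKO), and 3 came from G3bp1-Flox litter controls. Both groups ate the diet, so diet itself was not compared. The sources used here do not name the strain, the sex or the promoter that drove the deletion. Whether the libraries are separate animals is also not said there, and the p-values below therefore describe the scatter among these 6 samples, some of which may be technical.

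Acyl-CoA thioesterases cleave the bond between a fatty acyl group and coenzyme A, giving a free fatty acid and free coenzyme A. They work opposite to the acyl-CoA synthetases and set how much activated fatty acid stands ready for oxidation, esterification or signalling in each compartment of the cell. Type I enzymes (Acot1 to Acot6 in the mouse) have an alpha/beta hydrolase fold and type II enzymes (Acot7 to Acot13) a hotdog fold. In liver several of them are known targets of PPARalpha, a nuclear receptor activated by fatty acids. By textbook location, Acot1, Acot7, Acot11 and Acot12 were grouped as cytosolic, Acot2, Acot9 and Acot13 as mitochondrial, and Acot3, Acot4 and Acot8 as peroxisomal, although Acot7, Acot11 and Acot13 are found at more than one place.

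The type I members lie in a row on chromosome 12 (GRCm38, plus strand). The order is Acot2 (83987861 to 83993873), Acot1 (84009490 to 84018371), Acot4 (84038379 to 84048601) and Acot3 (84052144 to 84060402), a stretch of 72.5 kb, followed by the relatives Acot5 and Acot6. All 10 members are protein-coding. The coding sequences of the type I members resemble one another, Acot1 and Acot2 closely and Acot4 least. This is shown here because it bears on how reads were assigned. Acot1 and Acot2 were identical at 95.5% of 1239 aligned coding bases, Acot1 and Acot3 at 84.0% of 1260, and Acot1 and Acot4 at 76.6% of 1239. Coding bases 301 to 360 of Acot1 and the bases aligned to them in its neighbours read as follows, from GENCODE M21 transcripts, with bases that differ from Acot1 in capitals:
Acot1: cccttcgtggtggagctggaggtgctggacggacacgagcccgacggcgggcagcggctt
Acot2: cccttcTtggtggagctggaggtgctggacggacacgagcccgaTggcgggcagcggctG
Acot3: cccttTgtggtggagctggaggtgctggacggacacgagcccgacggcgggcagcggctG
Acot4: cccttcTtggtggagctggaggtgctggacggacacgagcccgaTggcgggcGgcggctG
In this window Acot2 differed from Acot1 at 3 bases, Acot3 at 2 and Acot4 at 4. For Acot3 and Acot4 the window is more like Acot1 than their whole coding sequence is. Acot2 was the longest, at 1362 coding bases against 1260 in Acot1. Its aligned part began at base 130, and the bases before it, which are shown because enzymes of the mitochondrial matrix usually carry their targeting sequence at the start, are given here in lower case up to the first 3 aligned bases in capitals:
Acot2 start: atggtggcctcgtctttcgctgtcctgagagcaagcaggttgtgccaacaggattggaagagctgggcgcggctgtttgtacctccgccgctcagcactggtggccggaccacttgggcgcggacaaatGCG

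The ends of the coding sequences are shown because enzymes sent to the peroxisome usually carry the signal in their last residues. The 9 bases before the stop codon are in capitals, with the codon before them and the stop codon in lower case:
Acot3: ccaGCAAAACTGtga
Acot4: tccTGTAGACTGtag
Acot8: gagAGTAAGCTAtag
Acot1: tctCCTAAAATAtaa
Acot2: ggtAGCAAGAGTtag
Acot13: cacCTGGGGAACtga
Acot11: ctcCAGACCCTCtag
Acot12: aaaAGTGTGTTAtaa
The peroxisomal members Acot3 and Acot4 both ended in the codon CTG and Acot8 in CTA, and Acot1, Acot2 and Acot13 ended in ATA, AGT and AAC. Acot11 and Acot12, grouped as cytosolic, ended in CTC and TTA, which are further codons for the same residue as CTG and CTA.

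Promoters were searched for the response element of PPARalpha, a direct repeat spelled AGGTCANAGGTCA, on both strands in the 250 bases before the start that RefSeq gives. RefSeq windows (GRCm38.p6) were found for 9 of the 10 members, all but Acot13. With up to 2 mismatches the element was present in 3.72% of 27025 genes, with up to 1 mismatch in 0.566% and without mismatch in 0.0407%. Acot12 held a match with 1 mismatch, 110 bases before its start, and Acot4 a match with 2 mismatches, 13 bases before its start. In the windows of the other 7 members these letters were not found. For Acot7 the window (chr4:152185358-152185607) lies inside the gene as the deposited table spans it, so the stretch before that earlier start was not searched. Both windows with a match are printed with the match, which lies on the other strand, in capitals:
Acot12, chr13:91741271-91741520, plus strand: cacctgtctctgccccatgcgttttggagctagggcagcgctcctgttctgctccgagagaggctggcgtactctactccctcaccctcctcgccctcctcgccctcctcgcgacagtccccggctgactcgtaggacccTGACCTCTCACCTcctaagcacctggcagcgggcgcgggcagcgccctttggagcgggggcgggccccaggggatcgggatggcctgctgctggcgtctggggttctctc
Acot4, chr12:84038129-84038378, plus strand: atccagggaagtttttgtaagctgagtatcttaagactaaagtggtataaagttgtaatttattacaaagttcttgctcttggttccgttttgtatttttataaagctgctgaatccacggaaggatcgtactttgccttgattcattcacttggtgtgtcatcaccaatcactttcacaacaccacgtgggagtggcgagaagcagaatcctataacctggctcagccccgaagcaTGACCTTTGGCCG

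Libraries held 15804115 to 17954066 reads assigned to genes, recovered from the FPKM (a read count scaled to gene length and sequencing depth). G3bp1 stood at 8.46, 8.46 and 9.10 FPKM in Flox 1 to 3 and at 4.66, 4.28 and 4.44 FPKM in HKO 1 to 3, 48.6% lower on average (log2 fold change -0.83, limma adjusted p = 0.110), and each library matched its label. Hepatocyte markers were abundant in all libraries (Alb at 29560 ± 1203 FPKM in Flox and 29610 ± 4225 in HKO, SD, n = 3). In 6 of 10, with Alb at -0.01, the log2 fold change was below 0, against 51.2% of all genes, and in TPM in 3 of 10. Kupffer cell markers, of resident liver macrophages, had a log2 fold change above 0 in 12 of 12 genes, where 5788 of all 11856 genes did. Above 0 were also 4 of 4 recruited macrophage, 7 of 8 endothelial, 3 of 3 lymphocyte, 3 of 4 bile duct and 5 of 8 stellate cell markers tested. Of the neutrophil markers 0 of 2 were. The summed level of the Kupffer cell markers was 151 to 278 FPKM in Flox and 227 to 370 FPKM in HKO. Adipocyte and brown fat markers summed to at most 0.347 FPKM and muscle markers to at most 0.0780 FPKM. The first principal component over all genes, with 33.6% of the variance, did not separate the groups: Flox 1, Flox 2 and HKO 1 lay at -14.9, -23.5 and -3.96, and Flox 3, HKO 2 and HKO 3 at 14.1, 13.8 and 14.5. Values without Flox 3 and without HKO 1 are therefore given for the members.

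Over the family, the summed level of thioesterase transcripts in each HKO library lay below that of each Flox library in FPKM, and no single member passed the test over all genes. The summed level of the 10 members was 155.5, 149.7 and 154.3 FPKM in Flox 1 to 3 and 128.2, 119.3 and 120.8 FPKM in HKO 1 to 3, a mean 19.8% lower without overlap between the groups. Without Acot13, which made up the greatest part, the sum was 18.0% lower, again without overlap. The totals over all genes in the table were also lower in HKO without overlap. These totals were 494430, 491400 and 431500 FPKM in Flox 1 to 3 and 414410, 422730 and 412340 FPKM in HKO 1 to 3. In TPM every library is set to the same total. There the sums of the 10 members were 304.6 to 357.5 in Flox and 282.3 to 309.3 in HKO, 9.41% lower with overlap. In bulk tissue, fewer hepatocytes and less thioesterase RNA per hepatocyte cannot be told apart.

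All 10 members passed the filter of at least 0.5 FPKM in at least 3 libraries. At an adjusted p under 0.05 in limma, 0 of the 10 members and 1 of 11856 genes (0.00843%) were called, and limma's voom on recovered reads called 0 members as well. At an unadjusted p under 0.05 in limma, 3 members were lower in HKO and 0 higher, where 4.55% of all genes were lower and 3.08% higher. In 9 of the 10 members the mean log2 fold change was below 0, against 51.2% of all genes. In 4 members every HKO library lay below every Flox library in FPKM, where 7.21% of all genes did so, and in 0 members every HKO library lay above, where 6.06% did so. In TPM the first held for 1 member, Acot13 (2.02% of all genes), and the second for 0 members (16.5% of all genes). The median log2 fold change of the members was -0.31 against -0.01 over all genes in FPKM. In TPM it was -0.18 against 0.15, so the distance from the typical gene was -0.30 and -0.33 on the 2 scales, and 9 of 10 members lay below the typical gene on both.

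**Figure D1:**
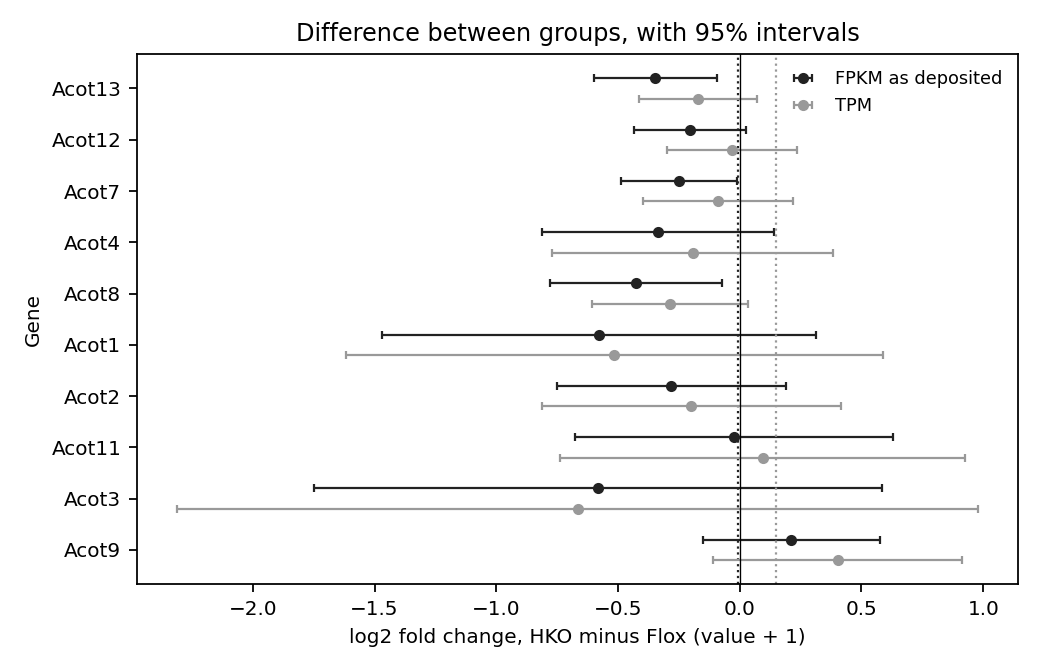
Difference between groups for each member as log2 fold change of value + 1 (HKO minus Flox), as deposited FPKM (black) and TPM (grey), with 95% intervals from limma and dotted lines at the median of all genes tested. In FPKM, 9 members lie below 0 and the intervals of Acot13, Acot8 and Acot7 lie wholly below 0, while in TPM every interval includes 0.

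The order of levels was much the same in all libraries. Acot13, Acot12 and Acot7 ranked 1, 2 and 3 among the members in each of the 6 libraries, in TPM, which allows genes to be compared per length. Acot13 made up 44.2% to 51.4% of the pool and Acot12 24.0% to 28.3%. Acot4 and Acot8 followed and changed places between libraries, at 4.04% to 7.02% and 4.29% to 6.81%, so their levels did not differ beyond their spread. Acot1 ranked 6 in 5 libraries and 9 in HKO 3. At the low end Acot2, Acot3, Acot9 and Acot11 each held under 3% in every library, and their order varied. By compartment, mitochondrial members held 50.9% ± 2.57 of the pool in Flox and 50.2% ± 3.16 in HKO (SD, n = 3). Cytosolic members held 36.4% ± 1.19 and 38.5% ± 0.947, and peroxisomal members 12.7% ± 1.39 and 11.3% ± 2.41. The relatives Acot5, Acot6 and Acot10 were at or below 0.264 FPKM in every library, from at most 27 reads.

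**Figure D2:**
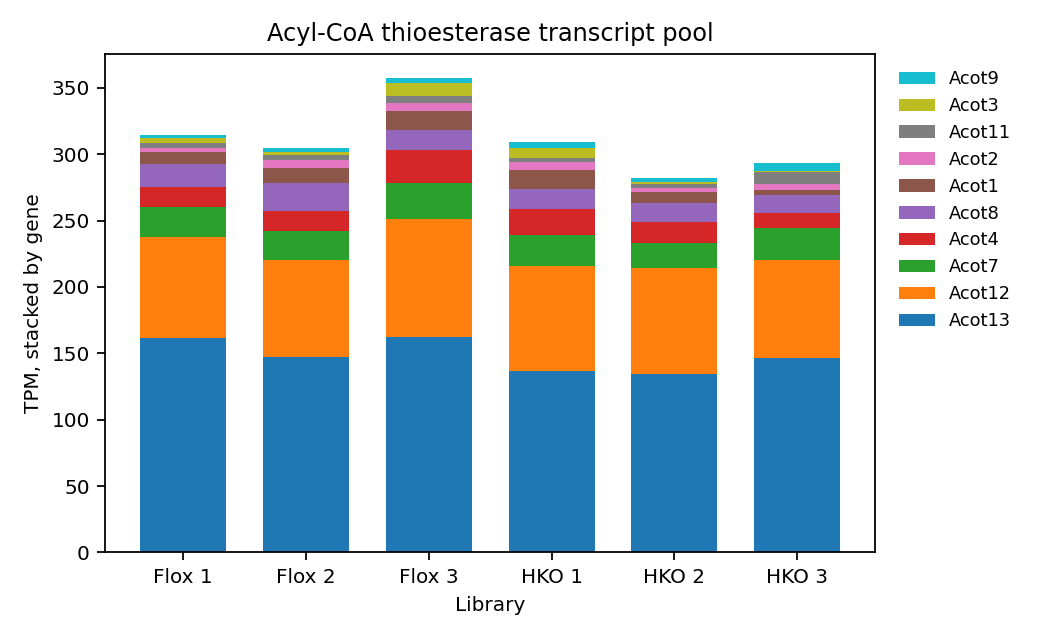
TPM of the 10 members stacked by gene (vertical axis) in each of the 6 libraries (horizontal axis). Acot13 and Acot12 form most of the bar in every library, and the totals run from 282.3 in HKO 2 to 357.5 in Flox 3.

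Acot13 (chromosome 13, 24817948 to 24831540, minus strand), also called Them2, is a long-chain thioesterase linked to mitochondria that binds the phosphatidylcholine transfer protein. It stood at 79.9, 72.4 and 70.1 FPKM in Flox 1 to 3 (914, 800 and 876 reads) and at 56.7, 56.8 and 60.5 FPKM in HKO 1 to 3 (748, 705 and 835 reads). Every HKO library lay below every Flox library, and the spread within each group (SD 5.16 and 2.20 FPKM) was smaller than the difference of the means. The mean was 21.8% lower, with a log2 fold change of -0.35 (SE 0.107, 95% interval -0.60 to -0.10). Limma gave an unadjusted p of 0.0137 and an adjusted p of 0.648, and over the alternatives the adjusted p ran from 0.128 to 0.989. An exact permutation test gave p = 0.1, the smallest that 3 against 3 libraries allow. The fold change was -0.39 without Flox 3 and -0.33 without HKO 1. In TPM it was -0.17 (95% interval -0.42 to 0.07), still without overlap. Of the 50-base stretches of its transcripts 0.0% occur in another gene. Its partner Pctp stood at 35.1, 41.0 and 38.0 FPKM in Flox and 36.1, 28.4 and 24.3 FPKM in HKO. HKO 1 lay within the Flox range for Pctp (log2 fold change -0.37, adjusted p = 0.651 in limma).

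Acot12 (chromosome 13, 91741512 to 91786148, plus strand) hydrolyses acetyl-CoA in the cytosol and carries a lipid-binding START domain. It stood at 37.6, 35.9 and 38.4 FPKM in Flox and at 32.8, 33.7 and 30.4 FPKM in HKO, from 1756 to 2126 reads, the most of any member. The groups did not overlap in FPKM and overlapped in TPM. The mean was 13.5% lower (log2 fold change -0.20 with SE 0.0982, 95% interval -0.44 to 0.03, limma adjusted p = 0.667), and in TPM the fold change was -0.03. In FPKM it was -0.18 without Flox 3 and -0.22 without HKO 1. Acot7 (chromosome 4, 152178134 to 152271855, plus strand) is a long-chain thioesterase best known from brain. It stood at 11.1, 10.7 and 11.5 FPKM in Flox and at 9.61, 8.18 and 9.83 FPKM in HKO. Here too the groups did not overlap in FPKM and overlapped in TPM. The mean was 17.0% lower (log2 fold change -0.25 with SE 0.102, limma adjusted p = 0.648), and -0.09 in TPM. In FPKM it was -0.23 without Flox 3 and -0.28 without HKO 1.

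Acot8 (chromosome 2, 164792765 to 164804882, minus strand) is a peroxisomal enzyme of wide substrate range that acts on chain-shortened acyl-CoA and bile acid CoA esters. It stood at 8.63, 10.2 and 6.61 FPKM in Flox and at 6.38, 6.00 and 5.56 FPKM in HKO. The groups did not overlap in FPKM, with Flox 3 just above HKO 1, and they overlapped in TPM. The mean was 29.4% lower (log2 fold change -0.42, SE 0.15, 95% interval -0.78 to -0.07), with an unadjusted p of 0.0249 and an adjusted p of 0.648 in limma. Without Flox 3 the fold change was -0.57 and without HKO 1 -0.47, and the adjusted p over the alternatives ran from 0.128 to 0.989. Exons of Snx21 on the other strand cover 12.3% of its exon bases, and the library kit does not mark strand, so part of its reads is uncertain. Snx21 itself stood at 2.07 to 2.64 FPKM in Flox and 1.80 to 2.95 FPKM in HKO.

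**Figure D3:**
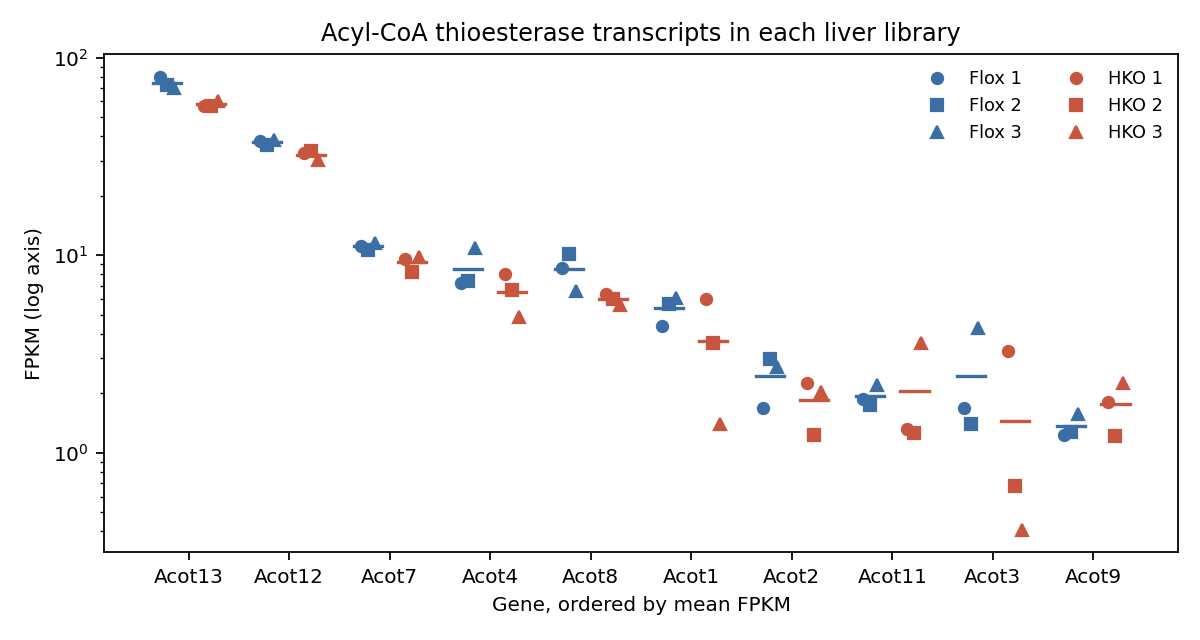
FPKM of each member (log axis, members ordered by mean) in the 3 Flox libraries (blue) and the 3 HKO libraries (red), with bars at group means and a marker shape for each replicate number. HKO points lie below all Flox points for Acot13, Acot12, Acot7 and Acot8, and the HKO points of Acot1, Acot3 and Acot11 spread widely.

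The type I members of chromosome 12 were lowest in HKO 2 or HKO 3, and HKO 1 lay within the Flox range for each of the 4. Acot1, the cytosolic long-chain enzyme, stood at 4.40, 5.67 and 6.10 FPKM in Flox (265, 330 and 402 reads) and at 6.03, 3.58 and 1.39 FPKM in HKO (419, 234 and 101 reads). HKO 1 lay near the top of the Flox range and HKO 3 far below it. The mean was 32.0% lower (log2 fold change -0.58 with SE 0.372, 95% interval -1.47 to 0.31, limma adjusted p = 0.703). Without HKO 1 the fold change was -0.94, with an unadjusted p of 0.0183 and an adjusted p of 0.423 in limma, without Flox 3 it was -0.50 and without HKO 3 -0.16.

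Acot3, a peroxisomal enzyme of long- and medium-chain acyl-CoA, varied most of all members, with a highest library 10.5 times the lowest. It stood at 1.68, 1.39 and 4.29 FPKM in Flox and at 3.28, 0.680 and 0.408 FPKM in HKO. Flox 3 and HKO 1 were high and the other 4 libraries low, so the groups overlapped. Counting error alone put Flox 3 between 3.77 and 4.86 FPKM (248 reads) and HKO 3 between 0.267 and 0.598 FPKM (26 reads), as exact 95% Poisson intervals, which cover counting error only. The spread between libraries of 1 group (65.0% of the mean in Flox and 109% in HKO, as SD) was thus wider than the counting error of HKO 3, the library with the fewest Acot3 reads, 19.6%. The mean was 40.7% lower (log2 fold change -0.58 with SE 0.486, limma adjusted p = 0.748). Without HKO 1 the fold change was -1.07, without Flox 3 -0.23 and without HKO 3 -0.27.

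Acot4, a peroxisomal thioesterase that acts on succinyl-CoA in the mouse, stood at 7.25, 7.42 and 10.8 FPKM in Flox and at 8.03, 6.69 and 4.88 FPKM in HKO. Flox 3 was highest and HKO 3 lowest, as for Acot1 and Acot3. Its mean was 23.2% lower (log2 fold change -0.34 with SE 0.202, limma adjusted p = 0.688), -0.17 without Flox 3 or without HKO 3 and -0.48 without HKO 1. Acot2, the matrix enzyme of mitochondria, stood at 1.69, 2.97 and 2.71 FPKM in Flox and at 2.26, 1.23 and 2.04 FPKM in HKO, from only 45 to 100 reads. HKO 2 was lowest here, and the groups overlapped (log2 fold change -0.28 with SE 0.20, limma adjusted p = 0.720, and -0.12 without HKO 2). Leaving out Flox 1, 2 or 3 gave -0.45, -0.17 and -0.22, and leaving out HKO 1 gave -0.39. These 4 genes are uncertain as single genes, since 13.4% (Acot4) to 27.7% (Acot2) of the distinct 50-base stretches of their transcripts occur in another gene, among them relatives of the cluster. Acot3 and Acot4 also overlap the read-through gene Gm49366, listed at 0 in every library, and the antisense gene 4732463B04Rik, at 0.111 to 0.629 FPKM, over 20.6% and 9.7% of their exon bases.

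The mean of the 4 genes, as log2(FPKM + 1) centred on each gene, was -0.04, 0.15 and 0.55 in Flox 1 to 3 and 0.33, -0.36 and -0.64 in HKO 1 to 3. Flox 3 and HKO 1 stood highest, and HKO 2 and HKO 3 lowest, so the libraries did not fall into the labelled groups. Among 5195 genes of at least 5 FPKM on average outside the family, the 5 with the smallest root mean square difference from this profile over 6 libraries were Irf1 (0.08), Psme1 (0.12), Gm10053 (0.14), Bst2 (0.14) and Psme2b (0.15). A flat profile would differ from it by 0.40. Acot2 departed from this mean profile, with its highest value in Flox 2 (0.36) and -0.03 in HKO 3. Irf1, a transcription factor of the interferon response, stood at 7.43, 8.66 and 11.5 FPKM in Flox and at 10.95, 6.66 and 4.87 FPKM in HKO. Psme1, which encodes a subunit of a proteasome activator, stood at 38.3, 44.0 and 49.9 FPKM in Flox and at 45.5, 31.2 and 28.1 FPKM in HKO. Both genes were picked for nearness to this profile, so being high in Flox 3 and HKO 1 and low in HKO 2 and HKO 3 follows from that choice. How many genes come this near by chance was not tested. Neither gene passed the test (adjusted p = 0.755 and 0.685 in limma). Copies of Gm10053 and Psme2b were not searched for.

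**Figure D4:**
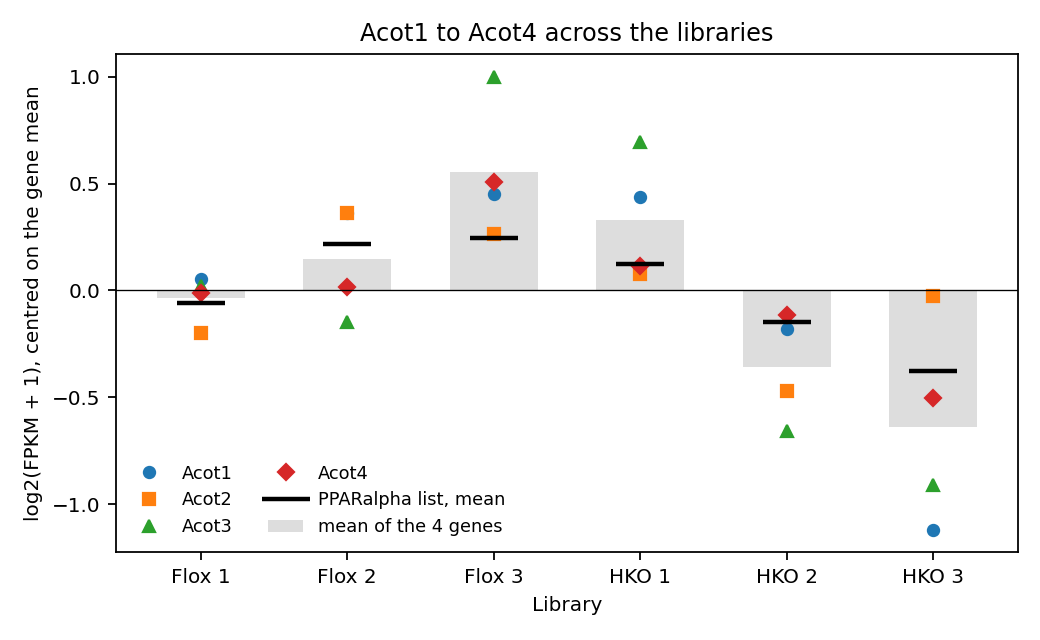
log2(FPKM + 1) centred on the gene mean (vertical axis) in each library for Acot1 to Acot4 (coloured points), their mean (grey bars) and the mean of the 24 genes of the PPARalpha list (black lines). Flox 3 and HKO 1 hold the highest bars (0.55 and 0.33) and HKO 3 the lowest (-0.64), and the black line is lowest in HKO 3 (-0.38), or in HKO 2 (-0.15) when Cyp4a10 and Cyp4a14 are left out.

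The remaining members did not share this pattern. Acot9 (chromosome X, 155262443 to 155297654, plus strand), a mitochondrial thioesterase of broad chain length, was the 1 member with a mean log2 fold change above 0. It stood at 1.23, 1.27 and 1.57 FPKM in Flox and at 1.81, 1.21 and 2.25 FPKM in HKO, from 43 to 95 reads. In FPKM HKO 2 lay just below all Flox libraries and HKO 1 and HKO 3 above them (log2 fold change 0.21 with SE 0.155, limma adjusted p = 0.725). Without HKO 3 the fold change was 0.08, without HKO 2 0.36, without Flox 3 0.27 and without HKO 1 0.19. The summed Kupffer cell markers were 151, 173 and 278 FPKM in Flox 1 to 3. In HKO 1 to 3 they were 370, 227 and 281 FPKM. Among the HKO libraries the markers and Acot9 were lowest in HKO 2, but the markers were highest in HKO 1 and Acot9 in HKO 3. In HKO 2 the markers lay above Flox 1 and Flox 2. Acot9 in HKO 2 (46 reads) lay within counting error of Flox 1 and Flox 2 (43 reads each). It was just below them in FPKM and above them in TPM (2.87 against 2.49 and 2.59). The part of the markers in the Acot9 values was not tested. The coding sequence of Acot9 is 97.2% identical to that of Acot10, which held at most 2 reads. Acot11 (chromosome 4, 106744555 to 106804998, minus strand), known as Them1 from brown fat, has a START domain like Acot12. It stood at 1.88, 1.75 and 2.20 FPKM in Flox and at 1.31, 1.27 and 3.60 FPKM in HKO. HKO 1 and HKO 2 lay below all Flox libraries and HKO 3 (404 reads) far above them. The log2 fold change was -0.02 (SE 0.274, 95% interval -0.68 to 0.63, adjusted p = 0.986 in limma) and it was -0.36 without HKO 3, 0.04 without Flox 3 and 0.14 without HKO 1. In TPM it was 0.09. The linear mean in FPKM was 6.02% higher in HKO, the other way from the log2 value. Exons of Fam151a on the other strand, listed at 0 in every library, cover 20.9% of the Acot11 exon bases.

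Other genes of acyl-CoA metabolism are counted by the sign of their log2 fold change, and 0 of them passed in limma or with voom. In FPKM most were lower in each of the 6 lists, but in TPM most were higher in 4 of them, where 8833 of all 11856 genes were higher. Of 15 acyl-CoA synthetases tested (of 23 listed), which make the substrates of the thioesterases, 10 were lower and 5 higher in FPKM and 7 and 8 in TPM, with a median log2 fold change of -0.14 in FPKM. At an unadjusted p under 0.05 in limma, 2 were lower and 0 higher, and this and the like counts below stand beside 4.55% and 3.08% of all genes. Acsl1, the main long-chain synthetase of liver, stood at 95.7, 114.3 and 88.9 FPKM in Flox and at 73.4, 89.4 and 72.1 FPKM in HKO. The groups overlapped by Flox 3 and HKO 2 alone (log2 fold change -0.34, adjusted p = 0.651 in limma). The medium-chain synthetase genes Acsm1 (152 ± 15.5 and 118 ± 10.1 FPKM) and Acsm5 (34.5 ± 2.32 and 28.2 ± 2.76 FPKM) did not overlap between groups in FPKM (adjusted p = 0.648 for both in limma). Both overlapped in TPM. Every HKO library lay below every Flox library in 4 of the 15 synthetases in FPKM and in 1 in TPM. Over all genes this held for 7.21% and 2.02%, and the like counts below stand beside these shares.

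Of 10 other thioesterases and coenzyme A hydrolases tested (of 16 listed), 9 were lower and 1 higher in FPKM (median -0.12) and 2 and 8 in TPM, and 0 had an unadjusted p under 0.05 in limma. Baat, which joins bile acids to amino acids from their CoA esters, had means of 168 ± 12.9 and 153 ± 10.8 FPKM. Them6 stood at 3.46 ± 0.253 and 2.87 ± 0.360 FPKM. It was the 1 gene of this list with every HKO library below every Flox library in FPKM, and 0 were so in TPM. Of 12 genes of coenzyme A supply 8 were lower and 4 higher in FPKM (median -0.17) and 5 and 7 in TPM, and 1 was lower at an unadjusted p under 0.05. That gene was Slc25a42, the mitochondrial importer of coenzyme A, at 15.02, 18.8 and 14.8 FPKM in Flox and 12.7, 12.2 and 11.9 FPKM in HKO. All HKO libraries lay below all Flox libraries for Slc25a42 in FPKM (log2 fold change -0.37 with SE 0.116, limma adjusted p = 0.648). This held for 2 of the 12 genes in FPKM and for 0 in TPM. Of 13 genes of acyl-CoA binding and carnitine transfer (of 14 listed) 11 were lower and 2 higher in FPKM (median -0.20) and 7 and 6 in TPM, with 0 at an unadjusted p under 0.05. Dbi, the acyl-CoA-binding protein, stood at 395 ± 13.9 and 311 ± 63.8 FPKM, and Cpt2, which returns acyl groups from carnitine to coenzyme A, at 85.7 ± 14.3 and 68.1 ± 2.88 FPKM.

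In the list of PPARalpha, its partners and its targets other than thioesterases, which shares Cpt1a, Slc25a20, Vnn1 and Pex11a with the other lists, 18 of 24 genes were lower and 6 higher in FPKM, and 15 and 9 in TPM. The median in FPKM was -0.32, close to that of the thioesterases, and at an unadjusted p under 0.05 in limma 4 genes were lower and 1 higher. Mean centred values of the list were -0.06, 0.22 and 0.24 in Flox 1 to 3 and 0.12, -0.15 and -0.38 in HKO 1 to 3. The value in HKO 3 rests mostly on Cyp4a10 and Cyp4a14, fatty acid hydroxylases singled out after their values were seen, which lay at -3.01 and -3.30 there. Without them the list stood at -0.06, 0.23 and 0.13 in Flox and at -0.03, -0.15 and -0.12 in HKO, lowest in HKO 2, and its median log2 fold change was -0.31. On either list HKO 1 lay within the Flox range and HKO 2 and HKO 3 below it, and the part of this list in the values of the type I thioesterases was not tested. Ppara itself stood at 16.5, 17.9 and 29.2 FPKM in Flox and at 20.4, 26.3 and 23.5 FPKM in HKO, with overlap (log2 fold change 0.17, limma adjusted p = 0.819). Among 16 peroxisome biogenesis genes 15 were lower and 1 higher in FPKM (median -0.13) and 5 and 11 in TPM, and 4 were lower at an unadjusted p under 0.05. Among them Pex14, part of the import docking complex, stood at 7.73 ± 0.878 and 6.09 ± 0.610 FPKM without overlap (adjusted p = 0.648 in limma). Every HKO library lay below every Flox library in 3 of the 16 genes in FPKM and in 0 in TPM. In TPM the medians were 0.04 for the synthetases, 0.06 for the other hydrolases, 0.00 for coenzyme A supply, -0.03 for binding and transfer, -0.14 for the PPARalpha list and 0.02 for the peroxins, against 0.15 for all genes.

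**Figure D5:**
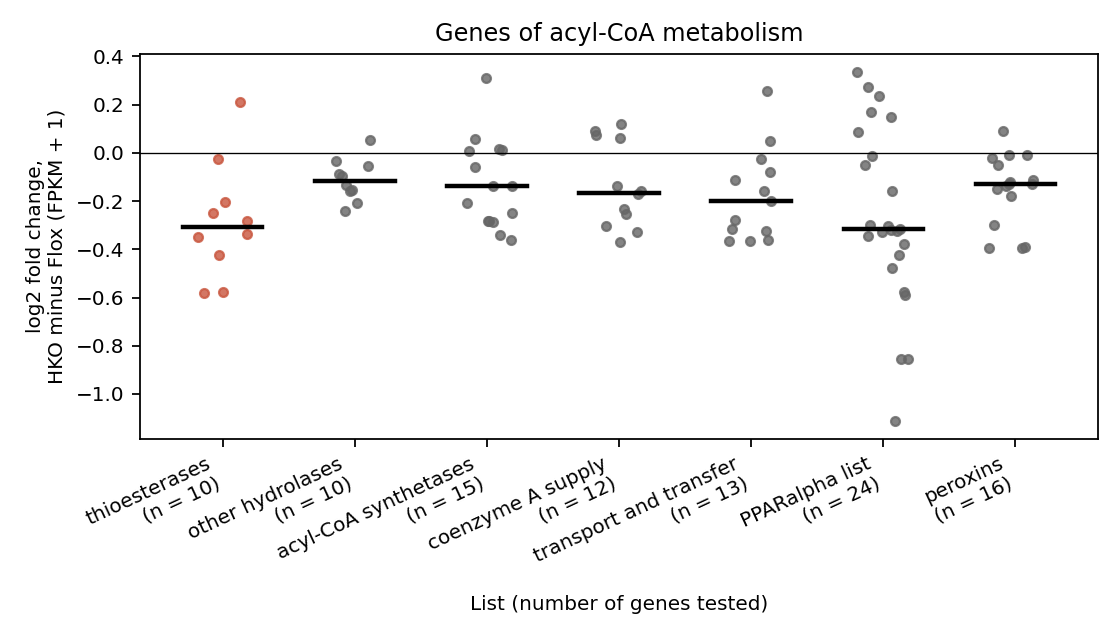
log2 fold change of FPKM + 1 (HKO minus Flox) of each gene tested (points) in the thioesterases and 6 lists of acyl-CoA metabolism, with black bars at the medians. The medians of the thioesterases and of the PPARalpha list are -0.31 and -0.32, and those of the other lists lie between -0.20 and -0.12.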

How the data were processed

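Liver RNA of 3 Flox and 3 HKO libraries was measured. The authors deposited 1 FPKM value per gene and library with gene lengths, not pooled. The builds GRCm38 and mm10 come from the submitters' processing notes. Aligner, counter and annotation: not given in the sources used here. Libraries were made with NEBNext Ultra kits, per the labels' protocols. FPKM times gene length gave whole reads within 0.02 for 100% of values above 0, and 15804115 to 17954066 reads per library, so low genes rest on few reads.

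log2(FPKM + 1) was tested with limma 3.58.1 (R 4.3.3, statmod 1.5.0; trend, robust, two-sided), with a pseudocount of 1, in 11856 genes of at least 0.5 FPKM in at least 3 libraries, adjusted over all of them by Benjamini-Hochberg (threshold 0.05). Fold changes on this scale understate low genes. Group values are means ± SD over 3 libraries. Members and lists were chosen with earlier results of these data known. Named were all members, Acot5, Acot6, Acot10, G3bp1, Ppara, Pctp, Baat and Acsl1, up to 3 genes per list with the smallest p, marker genes of the highest level and the 5 nearest profiles. TPM were computed from the deposited FPKM by scaling each library to the same total. Alternatives were another pseudocount and filters, TPM, quantile normalization, scaling by assigned reads, voom on recovered reads, array weights, a replicate block and leaving out each library. Copies used GENCODE M21, of the same build, blastn 2.17.0 and Biopython 1.88. The result for 1 named gene of the PPARalpha list is not reported here.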

Additional observations from a re-analysis of the deposited data

How the results depend on the processing

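No member passed the threshold under any of the 15 alternatives to the fit, and 9 of the 10 members kept the sign of their fold change in each alternative in which they were tested. The exception was Acot11, at 0.0934 under TPM, 0.0872 with array weights, 0.0261 scaled by assigned reads, 0.04 without Flox 3, 0.14 without HKO 1 and 0.15 without HKO 2 (range -0.36 to 0.15 with 1 library left out). Its groups differ by less than the spread between libraries. Requiring a mean of at least 5 FPKM left 5 members, all lower in HKO. The median of the members ranged from -0.37 to -0.18, the latter under TPM, where the typical gene lay at 0.15. Over all genes, the 1 gene lower in HKO became 0 with no filter, 2 at a mean of at least 5 FPKM, and 3 with voom and with array weights, and 0 to 12 with 1 library left out (12 without HKO 1). Higher genes numbered 0, and 0 to 1 with 1 library left out (1 without HKO 1). The cause was not tested. With the replicate block 0 genes and 0 members passed. Same-numbered libraries correlated at 0.02, 0.02 and 0.07 in their deviations from the group means, not each library best with its own number. All pairings lay between -0.10 and 0.07. Such small values from 3 libraries per group cannot tell whether the samples share more than a number. Reads of 26 to 100 limit Acot2, Acot9 and the low libraries of Acot3. No list of acyl-CoA genes held a gene past the threshold under any of these alternatives. Chosen after seeing the data, a PPARalpha list without Cyp4a10 and Cyp4a14 moved its mean centred value in HKO 3 from -0.38 to -0.12.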
